A study of Mus musculus with 2 samples.

Results

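Collagen genes and the genes for the enzymes and the chaperone that process collagen were compared between the heart of a control mouse and that of a mouse transgenic for WRN-K577M. The set of 32 genes holds 24 collagen chains and 8 processing genes, given by symbol and found on the arrays through RefSeq accessions, out of 21368 genes with a named probe. All 32 had at least 1 probe, 44 probes in all, and for 27 a probe stood well above background in both hearts. These 27 are called measured here. A further 3 (Col8a2, Col12a1 and Col15a1) were well above background in the control only, and 2 (Col11a1 and Col13a1) on neither array.

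Collagens are made of 3 protein chains wound into a triple helix. Inside the cell, prolyl and lysyl hydroxylases modify the chains and a dedicated chaperone holds the helix together. Outside it the propeptides of the fibril-forming types are cut off, fibrils assemble, and lysyl oxidases cross-link them. In heart, fibroblasts make most of the interstitial types I, III, V and VI, while endothelial and muscle cells lie on basement membranes that contain type IV. Fibrosis of the heart is known for an excess of types I and III.

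The control heart was of C57BL6 background. The other heart came from a B6.Cg-Tg line of the same background, 5025Wcl/Mmmh, with the transgene CAG-WRN*K577M. It encodes WRN with the K577M substitution in its helicase domain and is driven by the CAG promoter, which is active in most cell types. WRN is a RecQ DNA helicase whose loss causes Werner syndrome, and the study concerns signalling in the remodelled hearts of such mice. Each group is 1 sample on 1 one-colour Agilent array, and age, sex, treatment and any pooling of hearts are not given in the sources used here. Both sample titles carry the letters ND, which are not explained there. With 1 array per group there is no replicate check and no p-value, so genotype cannot be told apart from any other difference between the samples.

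On both arrays all 12 cardiomyocyte markers listed were measured, with a median log2 ratio of 0.14. A level is the processed signal over the array's 75th percentile, in log2, and the log2 ratio subtracts the control level from the transgenic one. Over the 14003 measured genes the median log2 ratio was 0.020 with an SD of 0.52. Probes well above background made up 55.2% of the control array and 52.9% of the WRN-K577M array. Probes printed at several spots differed between spots by an SD of 0.11 in log2 ratio (255 probes), and 2 SD correspond to 1.17-fold. For the 27 genes the error estimated by the software ran from 0.20 to 0.31 in log2 ratio, and both errors cover measurement only.

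Collagen genes were mostly lower in the transgenic heart. Of the 27 measured, 9 were at least 2-fold lower, against 3.46% of all measured genes, and none was at least 2-fold higher, against 1.94%, while 5.39% of all differed by 2-fold either way. The 9 were the interstitial chains Col3a1, Col14a1, Col1a1, Col1a2, Col6a3 and Col6a2, the basement membrane chain Col4a3, and the processing genes P4ha1 and Serpinh1. Ratios lay below 0 for 25 of the 27, against 47.6% of all measured genes. In 15 of these the difference exceeded 2 software errors, but the share of all measured genes beyond that limit was not computed. The median of the 27 was -0.84, which is 1.79-fold lower. After normexp background correction, run from the unprocessed spot signal with an offset of 50, that median was -0.35 and 7 were at least 2-fold lower, against 1.41% of all. The median gene was Col5a1 before normexp and Col4a4 after it. Col5a1 itself went only from -0.84 to -0.78, while the dim Col4a3 went from -1.26 to -0.19. At 1.5-fold, 14 were lower (9.16% of all measured genes) and none was higher (6.76% of all), and at 3-fold 3 were lower (1.1% of all). By their brightest probes Col3a1, Col14a1, Col1a1 and Col1a2 had the lowest ratios among the measured chains, and 4 of the 5 type IV chains lay within 1.5-fold. Since the arrays read bulk tissue, fewer cells of a type and less RNA per cell cannot be told apart.

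**Figure D1:**
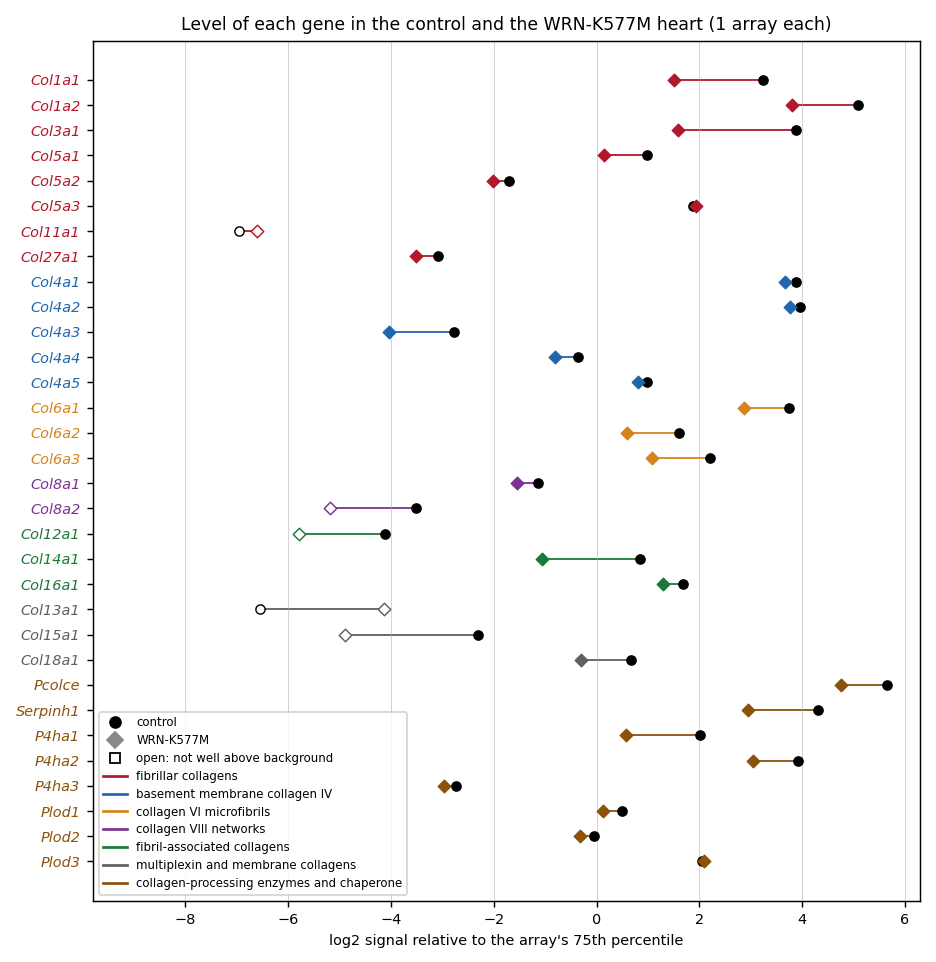
Level of each of the 32 genes as log2 signal relative to the array's 75th percentile, control (circles) against WRN-K577M (diamonds), coloured by role; open symbols are not well above background. The level of Col3a1 went from 3.88 to 1.59 and that of Col1a1 from 3.24 to 1.51, while the symbols of Col4a1, Col4a2, Col5a3 and Plod3 lie close together. Levels of different genes come from different probes and are not comparable with each other.

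Fibrillar collagens form the banded fibres that give the heart wall its tensile strength. Col3a1, the chain of type III collagen, had a control level of 3.88 and a transgenic level of 1.59, a log2 ratio of -2.29 or 4.90-fold lower. Only 59 of the 14003 measured genes had a lower ratio. Col1a1, the chain that supplies most of the type I triple helix, had levels of 3.24 in the control heart and 1.51 in the transgenic one, 3.32-fold lower. Its partner Col1a2 had levels of 5.09 and 3.80, 2.45-fold lower. The partner chains lie on different chromosomes, and their log2 ratios (-1.73 and -1.30) differed by 0.43. All 3 chains of types I and III were therefore lower by far more than the spread between spots. The summed signal of these chains, in units of each array's 75th percentile, was 58.4 in the control heart and 19.8 in the transgenic heart.

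The minor fibrillar chains did not share the size of that difference. Col5a1, whose product sits in the core of type I fibrils and limits their width, had levels of 0.99 and 0.15 (log2 ratio -0.84). Col5a2, which pairs with it, had levels of -1.71 and -2.02 (-0.31, and 0.023 after normexp). Col5a3 was near equal, with levels of 1.88 and 1.93 (0.053). Within type V the ratio thus ran from 1.79-fold lower to no difference beyond the error of the arrays. Col5a2 is the next protein-coding gene to Col3a1 in the GRCm38.p6 gene order, with none between them, yet the ratios of these neighbours lay 1.98 apart. Col27a1, a fibrillar chain of cartilage, was dim, with levels of -3.09 and -3.52, and Col11a1, which shares fibrils with type V, was not well above background on either array.

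Type VI collagen forms beaded microfibrils that tie cells to the interstitial matrix, and each of its molecules needs the Col6a1, Col6a2 and Col6a3 chains. Their control levels were 3.75, 1.60 and 2.21, and their transgenic levels 2.87, 0.59 and 1.08. The log2 ratios of -0.88, -1.01 and -1.13 spanned a narrow range, each beyond 2 software errors. Col6a1 and Col6a2 are neighbours in the gene order, with ratios 0.14 apart. Col6a2 (2.02-fold lower) lay just inside the 2-fold threshold, and Col18a1 (1.98-fold lower) just outside it. After normexp Col6a2 had a ratio of -0.88.

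**Figure D2:**
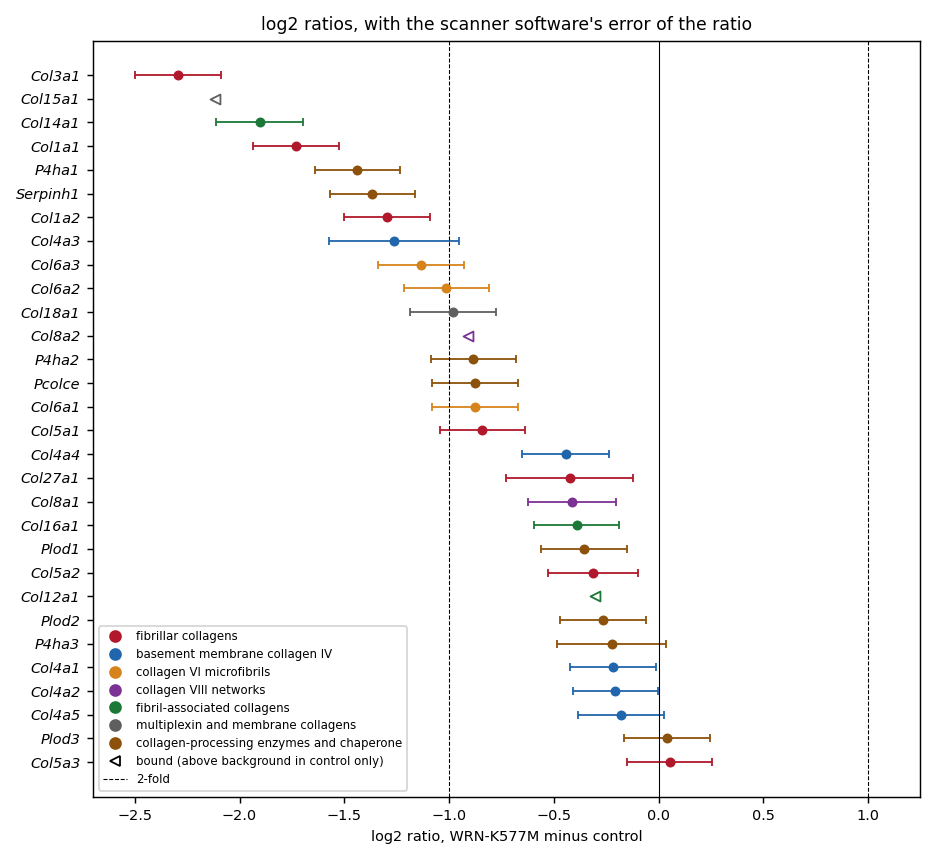
log2 ratio (WRN-K577M minus control) of the 27 measured genes, bars showing the software's error of the ratio, and of 3 genes above background in the control only (open triangles, upper bounds of the ratio); dashed lines mark 2-fold. The ratios run from -2.29 for Col3a1 to 0.053 for Col5a3, and none reaches 2-fold in the other direction.

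Fibril-associated collagens bind to the surface of fibrils and do not form fibres themselves. Col14a1, which regulates fibril growth, had levels of 0.84 in the control heart and -1.07 in the transgenic one, a log2 ratio of -1.90. A second, dimmer probe of Col14a1 read -0.99, so the size of the difference depends on the probe (3.74-fold or 1.98-fold lower). Col16a1 had levels of 1.69 and 1.30 and a ratio of -0.39. Col12a1 stood well above background in the control heart (-4.12) and not in the transgenic one (-5.79), which makes it at least 1.23-fold lower. That bound sets the brighter level against the lowest level of any probe well above background on the other array, -4.73 for the control and -4.42 for the transgenic heart, or against the dim probe's own level where that is higher.

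Collagens XV and XVIII link basement membranes to the matrix around them, and fragments of both (endostatins) can inhibit vessel growth. Col15a1 had a control level of -2.30, and in the transgenic heart it was not well above background (-4.89), which puts it at least 4.34-fold lower. All 3 of its probes were above background in the control only. Col18a1 had levels of 0.68 and -0.30 and a ratio of -0.98, with a second probe at -1.07. Counting the bound of Col15a1, 10 of the 32 genes were at least 2-fold lower, against 2.91% of all 21368 named genes with bounds counted likewise. Col13a1, a membrane-spanning collagen of cell junctions, had levels of -6.55 and -4.13 and was not well above background on either array.

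Type IV collagen forms the sheet-like network of basement membranes. Its ubiquitous chains Col4a1 and Col4a2, which combine in 1 molecule, had control levels of 3.89 and 3.96 and transgenic levels of 3.67 and 3.76. Their log2 ratios, -0.22 and -0.21, differed by 0.010. The Col4a1 probe was printed at 8 spots, whose ratios ran from -0.31 to -0.13 with an SD of 0.060. The difference was therefore small, 1.16-fold, though each of the 8 spots lay below 0. Col4a5, a chain of specialised basement membranes, was similar, with levels of 0.99 and 0.81 and a ratio of -0.18.

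Col4a3 and Col4a4 combine with Col4a5 in the basement membranes of kidney and lung alveoli. Col4a3 was dim, with a control level of -2.77 and a transgenic level of -4.03, a log2 ratio of -1.26. After normexp its ratio was -0.19. Col4a4 had levels of -0.37 and -0.81 (-0.44) by its brightest probe and a ratio of -1.15 by another. Lung epithelial markers were lower in the same heart: 7 of 12 were above background in the control only, and all 3 measured had ratios below 0. These were Scgb1a1 (-7.78), Aqp5 (-3.27) and Lamp3 (-0.47). The summed signal of the list was 144 in the control heart and 10.8 in the transgenic heart, most of the latter from Lamp3. The part of lung tissue in the ratios of Col4a3 and Col4a4 was not tested. Type VIII collagen forms open networks under endothelium. Its chain Col8a1 had levels of -1.14 and -1.56 (-0.41), and Col8a2, above background only in the control heart (-3.51 against -5.19), was at least 1.88-fold lower.

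**Figure D3:**
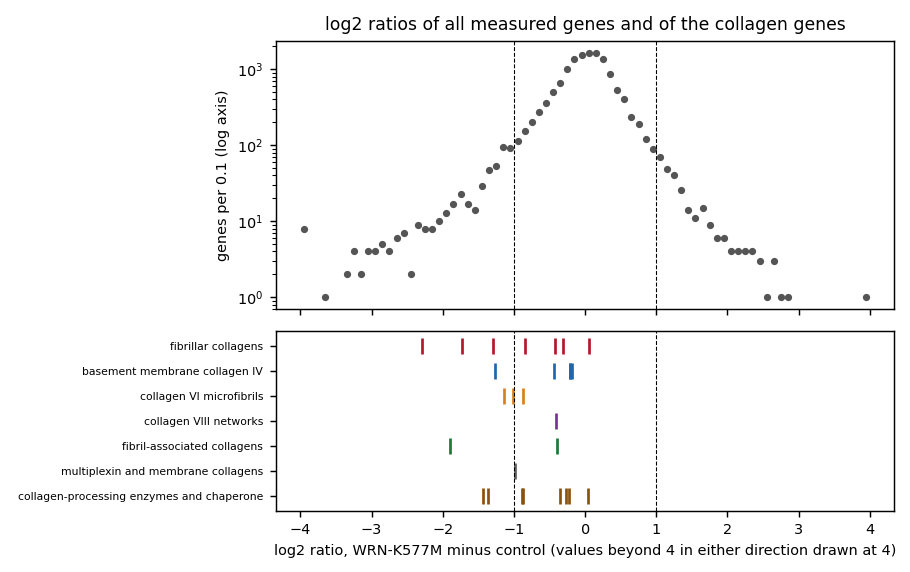
Upper panel, number of all 14003 measured genes per 0.1 of log2 ratio (points, log axis); lower panel, each tick 1 of the 27 measured genes, by role. The genes lie on the left side of the distribution, 9 of them beyond the dashed 2-fold line, while 3 type IV ticks lie together close to 0.

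Among the processing genes, those of the chaperone, the prolyl 4-hydroxylase subunits and Pcolce had ratios below 0 of different sizes. Serpinh1 encodes HSP47, the chaperone that binds procollagen in the endoplasmic reticulum and little else. Its control level was 4.31 and its transgenic level 2.95, a log2 ratio of -1.37. It is known as a heat shock gene as well. P4ha1, the main catalytic subunit of prolyl 4-hydroxylase, whose product stabilises the helix, had levels of 2.01 and 0.57 (-1.44), and a second probe read -1.11. The related subunit P4ha2 had levels of 3.92 and 3.04 (-0.88), and P4ha3, which is dim, -2.74 and -2.96 (-0.22, and 0.030 after normexp). Pcolce, the secreted enhancer of the proteinase that cuts the C-propeptide, had levels of 5.64 and 4.76 (-0.88).

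The 3 lysyl hydroxylases lay within 1.5-fold, as did most measured genes. Plod1, which acts on the helical region, had levels of 0.49 and 0.13 (-0.36, with a second probe at -0.58), and Plod2, which acts on the telopeptides that carry cross-links, -0.053 and -0.32 (-0.27). Plod3, which also adds glucose to galactosylhydroxylysine, was near equal, with levels of 2.06 and 2.10. All 8 processing genes were measured, with a median of -0.62. Of the 8, 2 were at least 2-fold lower (3.46% of all measured genes) and 7 below 0 (47.6% of all). Of the 32 genes, 6 had more than 1 probe measured, and the second probe lay below 0 in all 6. It differed from the brightest by 0.074 to 0.92.

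The promoter windows of 4 genes at least 2-fold lower are given to show what precedes their annotated starts. RefSeq windows on GRCm38.p6, of 250 bases before to 50 after the start, matched 26 of the 32 genes. Printed are the 250 bases before the start, 5′ to 3′ on the gene's strand, for Col1a2 (chr6:4505368-4505617, plus strand), Col3a1 (chr1:45311288-45311537, plus), Serpinh1 (chr7:99353240-99353489, minus) and P4ha1 (chr10:59323046-59323295, plus). Capitals mark matches, on either strand, to CCAAT (the NF-Y box), to TATAAA (the TATA box), to GGGCGG (the core of Sp1 sites), to ACGTG (the core of hypoxia response elements) and to GAANNTTC (from the heat shock element).
Col1a2: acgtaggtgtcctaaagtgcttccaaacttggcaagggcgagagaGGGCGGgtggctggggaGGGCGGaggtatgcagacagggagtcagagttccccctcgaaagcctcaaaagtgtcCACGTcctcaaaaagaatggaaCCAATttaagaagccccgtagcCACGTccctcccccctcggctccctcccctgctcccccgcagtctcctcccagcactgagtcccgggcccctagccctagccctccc
Col3a1: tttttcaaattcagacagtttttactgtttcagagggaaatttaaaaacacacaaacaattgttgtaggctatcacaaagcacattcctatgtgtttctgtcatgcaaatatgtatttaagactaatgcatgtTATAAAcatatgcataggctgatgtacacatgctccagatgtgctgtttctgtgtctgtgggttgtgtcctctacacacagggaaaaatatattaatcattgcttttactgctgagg
Serpinh1: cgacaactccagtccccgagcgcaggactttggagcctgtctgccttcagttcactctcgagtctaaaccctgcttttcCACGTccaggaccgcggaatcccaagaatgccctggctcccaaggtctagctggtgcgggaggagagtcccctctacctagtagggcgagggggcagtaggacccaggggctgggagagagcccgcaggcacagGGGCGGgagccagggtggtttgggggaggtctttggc
P4ha1: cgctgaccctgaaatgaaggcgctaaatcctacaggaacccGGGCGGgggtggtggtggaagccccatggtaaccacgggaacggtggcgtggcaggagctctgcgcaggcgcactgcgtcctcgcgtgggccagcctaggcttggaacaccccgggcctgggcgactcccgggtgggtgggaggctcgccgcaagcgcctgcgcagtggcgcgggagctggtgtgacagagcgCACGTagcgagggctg
A window held GGGCGG in 19 of the 26 genes (73.1%), against 60.6% of the windows of measured genes and 35.9% of all 27018 windows. CCAAT was found in 9 of 26 (34.6%), against 38.1% of measured genes and 37.9% of all windows. ACGTG was found in 7 (26.9%), against 24.7% of measured genes and 19.7% of all. TATAAA was found in 4 (15.4%), against 8.37% and 14.2%, and GAANNTTC in 2 (7.69%), against 5.86% and 7.95%. No motif contains another, and a match describes letters, not a bound site. The windows of Col1a2, Serpinh1 and P4ha1 shared GGGCGG and ACGTG, and that of Col3a1 had neither.

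Col4a1 and Col4a2 lie head to head on opposite strands. Their annotated starts are 21 bases apart and their windows share 78 bases, the annotated transcripts overlapping at their starts. The ratios of this pair were the closest of the neighbouring pairs compared. The pair Col4a3 and Col4a4 is also adjacent in the gene order, and there the ratios lay 0.82 apart by the brightest probes. Col4a5 and its neighbour Col4a6, a chain of smooth muscle basement membranes outside the set, lay 0.26 apart (Col4a6 0.075), but another probe of Col4a6 read -1.38.

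Genes of the rest of the collagen pathway are given by step. Of 20 other collagen genes 12 were not well above background in either heart, and the 7 measured had a median of -0.28. Col26a1 was above background in the transgenic heart alone, at least 1.65-fold higher. None of these 7 reached 2-fold in either direction, with Col20a1 (0.72) and Col23a1 (-0.69) farthest from 0. Most measured genes lay within 1.5-fold, with 9.16% of them at least 1.5-fold lower and 6.76% at least 1.5-fold higher. Of 15 general folding and modification genes, all measured, 13 lay within 1.5-fold and 11 below 0 (47.6% of all measured genes), with a median of -0.11. P4hb, the disulphide isomerase subunit of prolyl 4-hydroxylase, had a ratio of -0.10 beside the -1.44 of its partner P4ha1, and Ppib, the cyclophilin of the endoplasmic reticulum, of -0.11. Fkbp14 (-0.87), Crtap (-0.65), which takes part in prolyl 3-hydroxylation, Colgalt2 (-0.58) and P3h3 (-0.54) were the members farthest below 0. All 9 export genes lay within 1.5-fold, with a median of 0.0058, among them Mia3 (0.25), the TANGO1 receptor that loads collagen into transport carriers.

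The next steps take place outside the cell. Among the 10 measured genes of propeptide cleavage and cross-linking, 7 lay below 0 and the median was -0.49. Loxl2, a lysyl oxidase, had a ratio of -1.32 by its brightest probe, while its other probes read -0.55 and 0.015. Loxl3 had a ratio of -0.75 and Adamts2, which removes N-propeptides, of -0.71. Bmp1, the C-propeptide proteinase helped by Pcolce, had a ratio of -0.53 by its brightest probe, while its other probes read -0.36 and -0.0034. Lox itself, named after its values were seen, was dim and higher, with levels of -3.49 and -2.78. Among fibril assembly partners 13 of 14 measured lay below 0, with a median of -0.74, and 3 were at least 2-fold lower. Of all measured genes, 47.6% lay below 0 and 3.46% were at least 2-fold lower. The 3 partners were Comp (-1.74), Lum (-1.51), a proteoglycan that spaces fibrils, and Dpt (-1.02), while Thbs2 (0.96) was the sole partner above 0. Sparc, a collagen-binding secreted protein, had levels of 7.84 and 6.86, with a second probe at -1.10 and a much dimmer probe at 0.10.

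Receptors and enzymes of collagen turnover were lower as well, 11 of 12 measured lying below 0, against 47.6% of all measured genes. Their median was -0.55. Mmp2, gelatinase A, had a ratio of -1.31 and Itga11, a fibroblast integrin that binds fibrillar collagen, of -1.30. Itga10 (-0.93) and the endocytic collagen receptor Mrc2 (-0.73) followed. Of the 12 none was at least 2-fold higher, against 1.94% of all measured genes. Mmp8, a collagenase of neutrophils, was above background in the control heart alone, at least 4.89-fold lower. As with most measured genes, 16 of the 18 regulators listed lay within 1.5-fold, and their median was -0.12. The exceptions, both known to promote collagen synthesis, were higher: Ccn2, connective tissue growth factor, had levels of 4.69 and 7.39 (log2 ratio 2.69) and Tgfb2 of 1.03 and 2.56 (1.54). Tgfb1 had a level of 0.10 on both arrays, and Prrx1 (-0.51) and Mrtfa (-0.46) were the next farthest from 0.

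**Figure D4:**
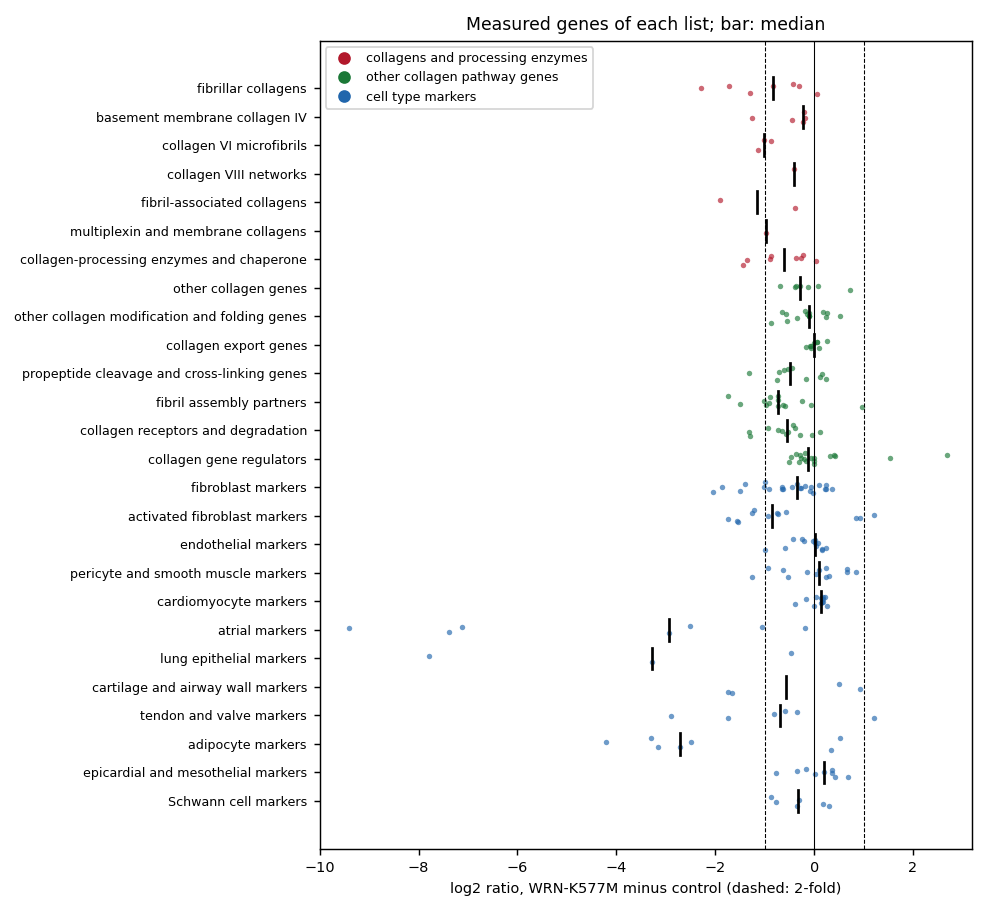
log2 ratios (WRN-K577M minus control) of the measured genes in each list, 1 point per gene, bar at the median; red, the collagens and their processing genes, green, other collagen pathway genes, blue, cell type markers. Medians of the export genes (0.0058) and endothelial markers (0.011) lie near 0, that of the fibril assembly partners at -0.74, and atrial, lung and adipocyte markers reach far to the left.

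Markers of fibroblasts, the main source of interstitial collagen, were split. Of 23 markers, all measured, 18 lay below 0 and 5 were at least 2-fold lower, and the median was -0.34. Of all measured genes, 47.6% lay below 0 and 3.46% were at least 2-fold lower. Mfap4 (-2.04), Pi16 (-1.86), Lum (-1.51) and Clec3b (-1.40) led. Thy1 (-0.99), Cd34 (-0.90) and Ddr2 (-0.65) were lower by less. Others lay closer to 0: Pdgfra, a receptor often used to mark fibroblasts, had levels of 1.22 and 1.04, Dcn of 7.62 and 7.56, Gsn of 7.29 and 7.38, and Tcf21 of -0.57 and -0.32. The summed signal of the list was 1079 in the control heart and 1041 in the transgenic heart, and most of it came from Medag, Dcn, Gsn and Mgp (826 and 882). Without these 4, chosen after their values were seen, the sum was 252 and 158. The 32 collagen genes summed to 222 and 120. Each summed signal mixes probes of different genes and includes listed genes not well above background. A sum is therefore compared between the hearts and not with the sum of another list. Among 12 measured markers of activated fibroblasts 5 were at least 2-fold lower, namely Comp (-1.74), Postn, periostin (-1.56), Ddah1 (-1.53), Cilp (-1.25) and Ltbp2 (-1.23), and 3 were above 0, namely Thbs4 (1.21), Timp1 (0.93) and Acta2 (0.85). Cthrc1 and Tnc were above background in neither heart. The lists share genes, so their counts are not separate results. Lum, Dpt, Dcn, Comp and Fn1 are also listed as fibril assembly partners. Ddr2 and Fap are also in the receptor and turnover list, and Loxl1 is also a cross-linking gene.

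Endothelial cells and pericytes make much of the type IV collagen. Endothelial markers had a median of 0.011 over 13 genes with 11 within 1.5-fold. The exceptions, Cldn5 (-0.99) and Vwf (-0.59), were both lower. Of all measured genes, 9.16% were at least 1.5-fold lower and 6.76% at least 1.5-fold higher. Pericyte and smooth muscle markers had a median of 0.090 over 13 genes with 7 within 1.5-fold. These markers went both ways, with Cnn1 (-1.26), Tagln (-0.94), Myh11 (-0.63), Des (0.66), Cspg4 (0.66) and Acta2 (0.85) outside 1.5-fold. Their summed signals were 201 and 179 for endothelial cells and 158 and 192 for pericytes and smooth muscle, control first.

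Markers of other tissues differed between the samples together with the collagen genes. Besides the lung list, in which Sftpc was at least 1336-fold lower and Sftpb, Sftpa1, Sftpd, Ager, Foxj1 and Nkx2-1 were also above background in the control alone and Scgb3a2 and Cldn18 in neither heart, atrial markers had a summed signal of 656 in the control heart and 157 in the transgenic heart. Sln (-9.41), Myl7 (-7.39) and Myl4 (-7.12) led, 6 of 7 measured atrial markers being at least 2-fold lower, against 3.46% of all measured genes. Nppa, with levels of 8.32 and 7.26 (-1.06), made up nearly all of the atrial sum in the transgenic heart. Of 7 measured adipocyte markers 5 were at least 2-fold lower, among them Car3 (-4.20) and Adipoq (-3.31), and Lep was above background in neither heart. The summed signal of the adipocyte list was 563 in the control heart and 704 in the transgenic heart, most of it from Lpl (0.34) and Fabp4 (0.53), which heart muscle and vessels also express. Lung, atrial wall and fat hold collagen-producing cells, and their part in the collagen ratios was not tested. Of 10 cartilage and airway wall markers, Col2a1, Col9a1, Matn1, Matn3 and Snorc were above background in neither heart and Acan in the control alone, while Matn4 had a ratio of -1.66 and Cnmd of 0.93, and the summed signal was 2.38 and 1.08. The brightest gene of that list in both hearts was Comp (-1.74, levels of 0.83 and -0.91). It is also listed as a fibril assembly partner, an activated fibroblast marker and a tendon marker. Of 8 tendon and valve markers Tnmd and Kera were above background in neither heart, Angptl7 had a ratio of -2.90 and Thbs4 of 1.21, and the summed signal was 6.19 and 6.38. Epicardial and mesothelial markers had a median of 0.20 over 9 genes and Schwann cell markers one of -0.33 over 6.

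**Figure D5:**
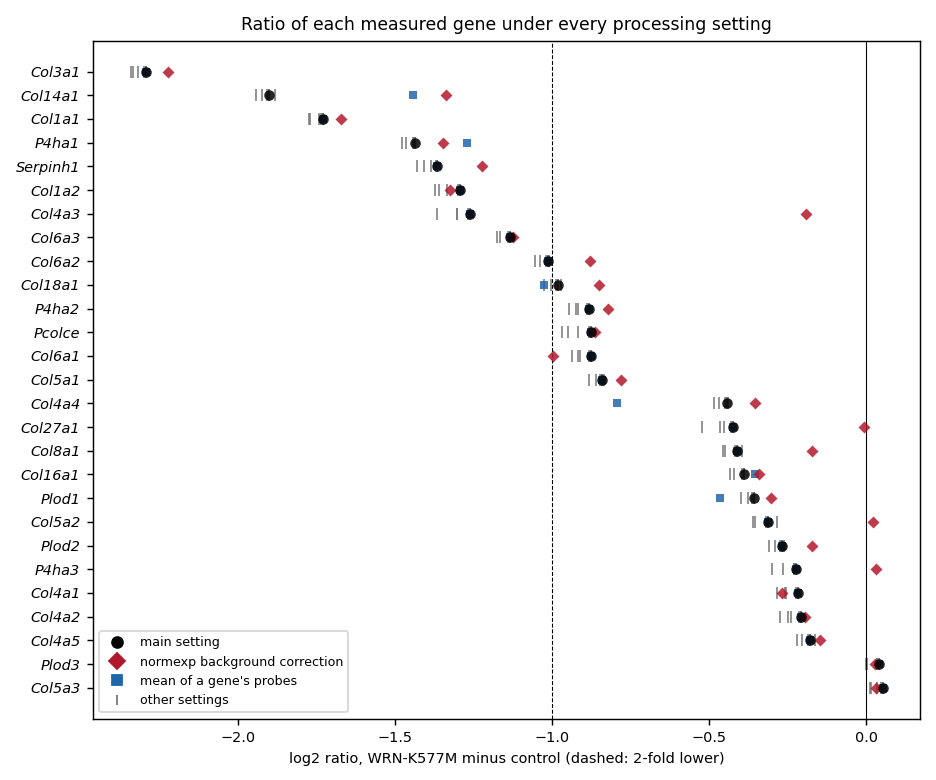
log2 ratio of each of the 27 measured genes under the main setting (black), normexp background correction (red), the mean of a gene's probes (blue) and the other settings (grey ticks). The points of Col4a3 spread most, from -1.37 to -0.19, while those of Col1a1 stay between -1.77 and -1.67 and those of Col3a1 between -2.34 and -2.22.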

How the data were processed

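Groups were taken from the genotype in the labels, 1 array each. The spot files hold intensity values that the authors made with Feature Extraction 11.5.1.1 of Agilent, as the submitters' processing notes and the file headers state. Per the file headers, the processed signal is background-subtracted, detrended and unscaled between arrays, and the files also give the software's flags as 0 or 1. The deposited series matrix is that intensity times a single factor per array (4.12 and 4.86). Control spots and 257 outlier spots were left out, log2 processed signals were centred on the 75th percentile of non-control spots (256 and 210), and spots of a probe were averaged. A probe was well above background if most of its spots were flagged so. Of 23871 RefSeq accessions, 22544 matched the GRCm38.p6 table, naming 28330 probes. The array design is annotated on mm9, per the file headers, so the table served for names, gene order and promoter sequences only. A gene took its brightest probe well above background on both arrays. Without replicates, no test was made and genes were counted at 2-fold.

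The members and the gene lists were chosen with earlier results of these data known. All 32 members are named, with up to 4 genes of largest ratio per pathway or marker list, and others for their role. Lox, Scx, Hopx and Mkx were left out of the lists by an error, and genes outside the rule were chosen after their values were seen. Alternatives were normexp background correction (offset 50, on the median spot signal), quantile normalization, cyclic loess, other centring, other filters on dim probes, averaging the probes of a gene, the deposited matrix, and 1.5-fold and 3-fold thresholds. The tools were limma 3.58.1 in R 4.3.3, and pandas 2.3.3, numpy 2.4.6 and matplotlib 3.10.9 in Python 3.11.15. The counting was tested on simulated data. The number of arrays limits the precision.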

Additional observations from a re-analysis of the deposited data

How the results depend on the processing

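Of the 9 genes at least 2-fold lower, 7 (Col1a1, Col1a2, Col3a1, Col6a3, Col14a1, Serpinh1 and P4ha1) were so under all 9 alternatives of normalization, background, filter, probe summary and source. In 3 of these (the deposited matrix and both filters) no ratio of a retained gene changed. The other two, Col4a3 and Col6a2, fell short of 2-fold after normexp (-0.19 and -0.88), and Col4a3 was not measured under the stricter filter for dim probes. The number at least 2-fold lower ran from 7 (normexp, 1.41% of all genes) to 12 (no filter, over 32 genes, 5.05% of all). By threshold it was 14 at 1.5-fold and 3 at 3-fold. The median was -0.35 after normexp, beside 0.051 for all genes, and from -0.88 to -0.84 otherwise. After normexp the median fell on Col4a4, while Col5a1, the median gene of the main setting, had a ratio of -0.78. Without a filter 1 gene was at least 2-fold higher, Col13a1, which was not well above background on either array, against 5.80% of all genes. After normexp Col5a2 (0.023) and P4ha3 (0.030) lay above 0. That alternative changed both the background method and the input signal, and which of them moved the values was not tested. Of the values of single genes under alternatives, 99 were identical to those reported, 128 moved by less than the SD between spots and 13 by more. No paired analysis was possible because each group is 1 sample. Dim probes limit Col4a3, Col27a1, P4ha3 and the genes with bounds.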
